A study of Oryza sativa Indica Group with 8 samples.

Results

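The known 24-nt miRNAs of the rice annotation with fewer than 10 listed loci numbered 49 of the 285 known identifiers (17.2%). They were chosen from the deposited annotation alone: an identifier belonged if its aligned bases summed to 24 and it had 1 to 9 loci. Only 3 of the 52 identifiers of 24 nt were beyond that ceiling, URS00005EC838 with 45 loci, URS00005BFC03 with 20 and URS000059F7F0 with 16. The 49 miRNAs had 79 loci, or 6.41% of the 1233 known loci, and each of the 49 had a row in the authors' table of known miRNAs.

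The study behind the annotation sequenced small RNA from rice panicles in 8 libraries. The labels name the genotypes Basmati370, KolaJoha, ThururBhog and IC463254 and give each 1 library at low nitrogen and 1 at the level called rec, with no replicate. The labels place the plants in the Indica group, while a japonica reference is named in the series' design text, and the annotation's names carry the taxon number of the Japonica Group, 39947. The columns of the count tables bear names that match none of these labels, so no abundance and no comparison of nitrogen levels or genotypes is reported. The results below describe where the 24-nt miRNAs lie, how many copies each had and what lay beside them.

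MicroRNAs are cut from RNA hairpins by Dicer-like enzymes and guide Argonaute proteins to matching transcripts. Most plant miRNAs are products of DCL1 and are shorter than 24 nt. Small RNAs of 24 nt in plants are mostly products of DCL3, and in rice a class of long miRNAs of this length is known that loads into AGO4-clade proteins and directs DNA methylation. A hairpin can yield a mature RNA from each arm, so 2 miRNAs that lie close together on the same strand may come from the same precursor. Neither miRNA names nor sequences stand beside the identifiers in the files, so identifiers are given as deposited and no sequence is shown. Positions are those of the authors' build, which no source used here names, and whether they fall in genes, introns or repeats was not analysed here.

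Most of the 24-nt miRNAs had a single place in the genome. Of the 49, 35 had 1 locus and 14 had several (28.6%, exact 95% interval 16.6 to 43.3). The median was 1 locus and the mean 1.61 ± 1.17 (SD, n = 49). Of the 14, 6 had 2 loci, 3 had 3, 2 had 4 and 3 had 5, and none had 6 to 9, so the ceiling on loci fell in an empty stretch between 5 and 16. Under the same ceiling, 39 of 152 miRNAs of 21 nt had several loci (25.7%, interval 18.9 to 33.4), as did 14 of 36 of 22 nt (38.9%, interval 23.1 to 56.5). Since the number of loci chose the members, these shares are a description and no test is read from them. Without the ceiling, 17 of the 52 identifiers of 24 nt had several loci.

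The copies of a 24-nt miRNA were far apart. In 7 of the 14 miRNAs with several loci, every copy was on a different chromosome. The same held for 23 of the 39 multi-locus miRNAs of 21 nt and 8 of the 14 of 22 nt. A copy within 10 kb of another copy of the same miRNA was found for 1 of the 14 of 24 nt (7.14%). Such a copy was found for 5 of the 39 of 21 nt (12.8%) and 2 of the 14 of 22 nt (14.3%). None of these counts was tested. The one case at 24 nt was URS00005F3589, on the minus strand of chromosome 1. Its 2 loci, at 8415818 to 8415841 and 8417119 to 8417142, had 1277 bases between them. Among the other 6 with copies on a shared chromosome, the nearest copies were 1.97 Mb apart or more. The smallest of these distances belonged to URS000027BA07.

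The 3 miRNAs with 5 loci each were spread over 4 chromosomes. URS00002BDFC5 had loci starting on chromosome 1 at 13538187, on chromosome 4 at 30425192, on chromosome 6 at 16315655 and on chromosome 8 at 5538791 and 14108258. Its 5 loci took both strands, 3 plus and 2 minus. URS000034493F was on chromosome 1 at 37838373, on chromosome 3 at 1164964 and 5230185, on chromosome 7 at 22152501 and on chromosome 8 at 19806532. Of these, 4 were on the plus strand and 1 on the minus strand. URS0000335BA0 was on chromosome 1 at 40622693, on chromosome 6 at 29030806, on chromosome 7 at 22061925 and on chromosome 8 at 23294378 and 27194020. Chromosomes 1 and 8 both held a locus of each of the 3.

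The 5 miRNAs with 3 or 4 loci showed the same scatter. URS00001BABA3 had its 4 loci on chromosomes 3, 6, 8 and 9, with 2 on each strand. URS000027BA07 had 4 loci, on chromosomes 6 and 7 and at 2 places on chromosome 8, again with 2 on each strand. URS00000FD01F was on chromosomes 1, 8 and 10, and URS00002E3270 on chromosomes 8, 11 and 12. URS000014B3E6 had 1 locus on chromosome 1 and 2 on chromosome 12, which were 3.99 Mb apart and on opposite strands. The remaining miRNAs had 2 loci. Those of URS00000BBE1E lay on chromosomes 5 and 10, those of URS000014BC6E on 6 and 10, those of URS0000045204 on 4 and 8 and those of URS00003437A8 on 11 and 12. Both loci of URS000051DD07 were on chromosome 11, 4.16 Mb apart and on opposite strands.

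**Figure D1:**
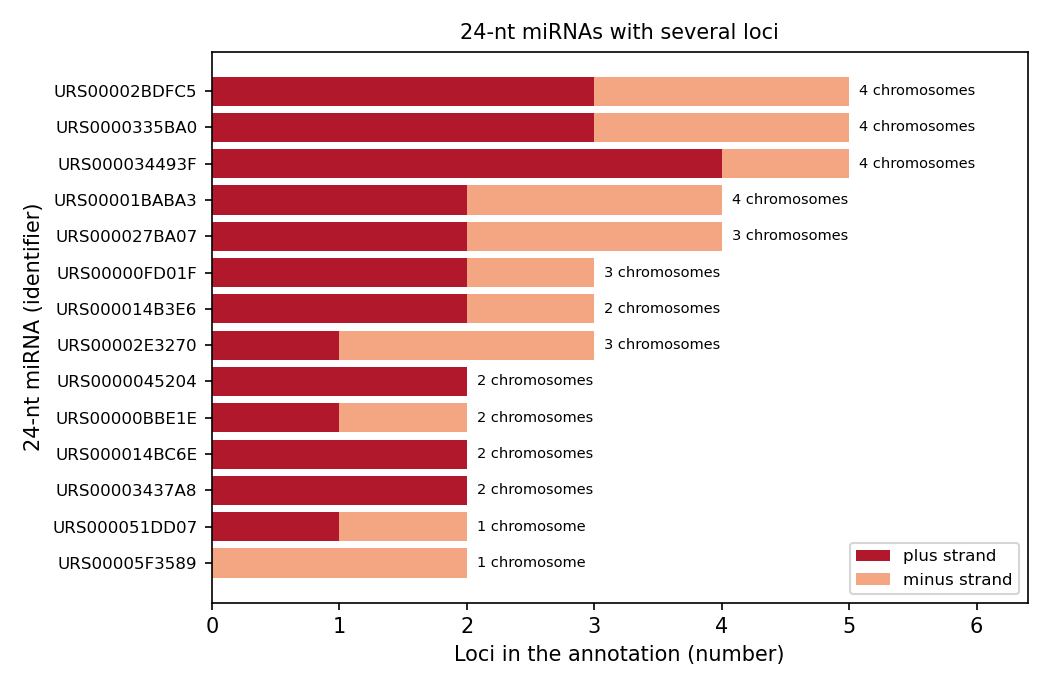
Number of loci (horizontal axis) of each of the 14 24-nt miRNAs with several loci (vertical axis), split by strand, with the number of chromosomes beside each bar. The 3 longest bars have 5 loci on 4 chromosomes, and URS00005F3589 and URS000051DD07 are the miRNAs whose copies share 1 chromosome.

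Exactly 2 of the miRNAs had copies on both chromosome 11 and chromosome 12, and their copies kept order and strand on both chromosomes. They were picked out after the positions had been seen. URS00002E3270 lay on the minus strand at 702144 on chromosome 11 and at 736600 on chromosome 12. URS00003437A8 lay on the plus strand at 1286653 on chromosome 11 and at 1170860 on chromosome 12. The starts were 584.5 kb apart on chromosome 11 and 434.3 kb apart on chromosome 12. As background, the short-arm ends of these 2 rice chromosomes are known to share a large duplicated segment. Whether the copies of these 2 miRNAs lie in that segment was not tested. URS00002E3270 had a further copy on chromosome 8 at 4323610, on the plus strand.

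A gapped alignment was listed for 2 of the 49 miRNAs, against 0 of 152 at 21 nt and 0 of 36 at 22 nt. URS0000335BA0 had 2 of them, on chromosome 7 at 22061925 to 22061959 on the plus strand and on chromosome 8 at 23294378 to 23294412 on the minus strand. Each spanned 35 bases, with 11 unaligned bases inside. URS000027BA07 had 1, on chromosome 8 at 24865647 to 24865671, which spanned 25 bases with 1 unaligned base. The other 76 of the 79 loci were aligned without a gap. At the gapped places the 24 aligned bases are not an unbroken run. No test compared the lengths in gapped alignments.

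A close partner was less common for 24-nt miRNAs than for the shorter ones, when each identifier was counted. A partner is here a locus of another known identifier on the same strand with at most 200 bases between them. Of the 49 miRNAs of 24 nt, 12 had one (24.5%, interval 13.3 to 38.9). Of the 152 miRNAs of 21 nt, 81 had a partner (53.3%, interval 45.0 to 61.4), and of the 36 of 22 nt, 19 did (52.8%, interval 35.5 to 69.6). The difference passed Fisher's exact test against 21 nt (-28.8 percentage points, adjusted p = 0.0039) and against 22 nt (-28.3 points, adjusted p = 0.031). The members of a pair are counted separately in this test, although they share a place. With identifiers of the same length that were joined by close partners counted as 1 unit, 7 of 44 units of 24 nt had a partner (15.9%), against 40 of 111 of 21 nt (36.04%) and 13 of 30 of 22 nt (43.3%). The share was still lower at 24 nt but the call was lost, as both adjusted p-values were 0.077, from Fisher's exact test with unadjusted p of 0.019 against 21 nt and 0.015 against 22 nt. The call against 22 nt also ended with a limit of 100 bases (adjusted p = 0.36) or 500 bases (adjusted p = 0.13) and without the ceiling on loci (adjusted p = 0.13, Fisher's exact test).

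The 12 miRNAs formed 7 close pairs, 5 on the plus strand and 2 on the minus strand. In 5 of the 7 pairs both loci were the only locus of their miRNA. The shortest gap was 10 bases, between URS0000246608 at 18470799 to 18470822 and URS000006D706 at 18470833 to 18470856 on chromosome 4. On chromosome 8, URS00000278CC at 26181393 to 26181416 was 18 bases from URS0000265462 at 26181435 to 26181458. On chromosome 6, URS000023D40E at 21164798 to 21164821 was 72 bases from URS000015EC44 at 21164894 to 21164917. On chromosome 3, URS000044BADA at 34000604 to 34000627 was 76 bases from URS00003D65B6 at 34000704 to 34000727. These 4 pairs were all on the plus strand, joined 24-nt miRNAs with 1 locus each, and spanned 58 to 124 bases from end to end.

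The other 3 close pairs differed from that pattern. URS00001C9D79, on the minus strand of chromosome 2 at 1553162 to 1553185, was 24 bases from URS000010419E at 1553210 to 1553230, a 21-nt miRNA that also had 1 locus. It was the only one of the 7 pairs to join 2 lengths. On the minus strand of chromosome 8, the copy of URS00002BDFC5 at 14108258 to 14108281 was 151 bases from a copy of URS000059F7F0 at 14108083 to 14108106. URS000059F7F0 is one of the 24-nt identifiers above the ceiling, with 16 loci. The other 4 loci of URS00002BDFC5 had no close partner. On the plus strand of chromosome 8, URS000034493F at 19806532 to 19806555 and URS0000045204 at 19806535 to 19806558 overlapped by 21 bases, with starts 3 bases apart. Reads of one can then cover most of the other, and no source used here says how the authors' counting divided them. This was the only overlap between known miRNAs on the same strand that touched any of the 49. The other copies of both miRNAs did not lie together.

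Just outside the limit of 200 bases were 2 further same-strand pairs of 24-nt miRNAs. URS000020DDC4, at 4833470 to 4833493 on chromosome 10, was 206 bases from a copy of URS000014BC6E at 4833700 to 4833723. URS0000477203, at 19715137 to 19715160 on chromosome 4, was 333 bases from URS000058D5A9 at 19715494 to 19715517. Most paired miRNAs of 24 nt and of 21 nt had a partner of the same length, while most of 22 nt did not. A 24-nt partner was listed for 11 of the 12 paired miRNAs of 24 nt (91.7%), a 21-nt partner for 68 of the 81 paired ones of 21 nt (84.0%) and a 22-nt partner for 8 of the 19 of 22 nt (42.1%). These shares were not tested, since the 2 members of a pair are not independent.

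**Figure D2:**
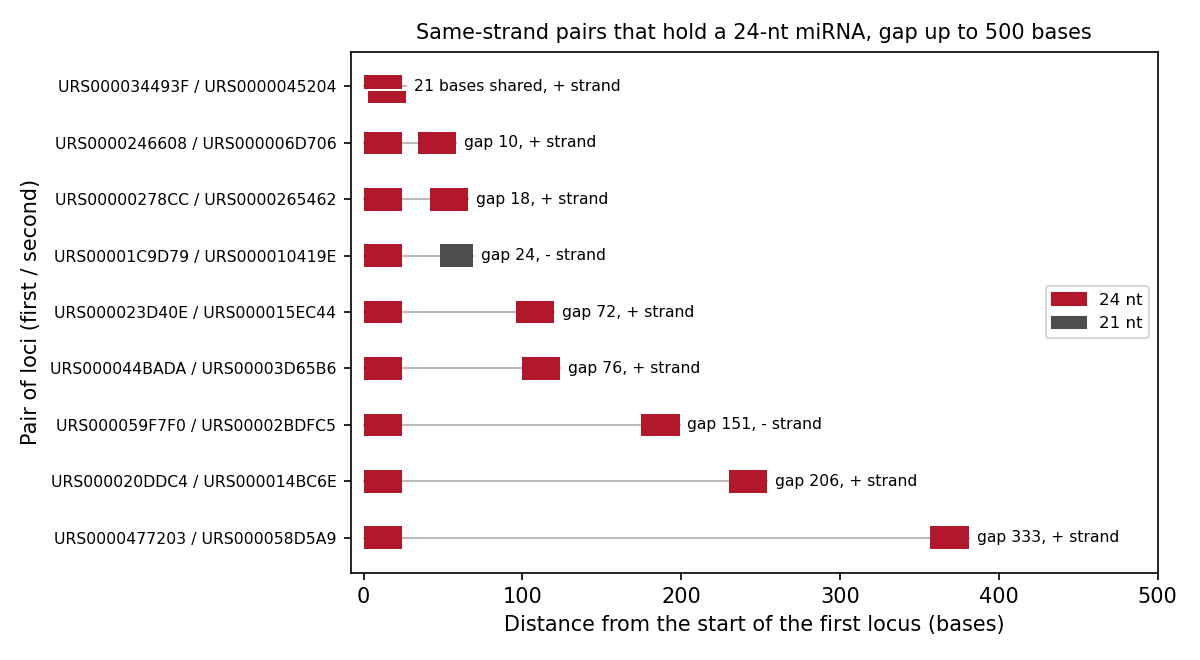
Layout of the 9 same-strand pairs that hold a 24-nt miRNA and have a gap of at most 500 bases (vertical axis), drawn by position on the chromosome from the start of the locus listed first (horizontal axis, bases). Boxes are loci, coloured by length. The overlapping pair is at the top, the gaps below it run from 10 to 333 bases, and 1 pair joins a 24-nt with a 21-nt miRNA.

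With close partners counted, the 24-nt miRNAs lay farther from other known miRNAs than the shorter ones in the median. The distance from a miRNA to the nearest locus of another identifier, on either strand and over its copies, had a median of 31.03 kb at 24 nt, 0.111 kb at 21 nt and 0.197 kb at 22 nt. A neighbour within 10 kb was found beside 21 of the 49 miRNAs of 24 nt (42.9%, interval 28.8 to 57.8). The shorter lengths had one in 101 of 152 cases at 21 nt (66.4%, interval 58.3 to 73.9) and in 23 of 36 cases at 22 nt (63.9%, interval 46.2 to 79.2). The difference passed Fisher's exact test against 21 nt (-23.6 points, adjusted p = 0.017) and not against 22 nt (-21.03 points, adjusted p = 0.13). Without the partners within 200 bases, 13 of the 49 had a neighbour, and the differences turned to 1.53 points against either length, with adjusted p = 1.0 in Fisher's exact test. With joined identifiers counted as 1 unit, 16 of 44 units of 24 nt had a neighbour, 60 of 111 of 21 nt and 17 of 30 of 22 nt, and the difference from 21 nt no longer passed (-17.7 points, adjusted p = 0.10, Fisher's exact test).

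**Figure D3:**
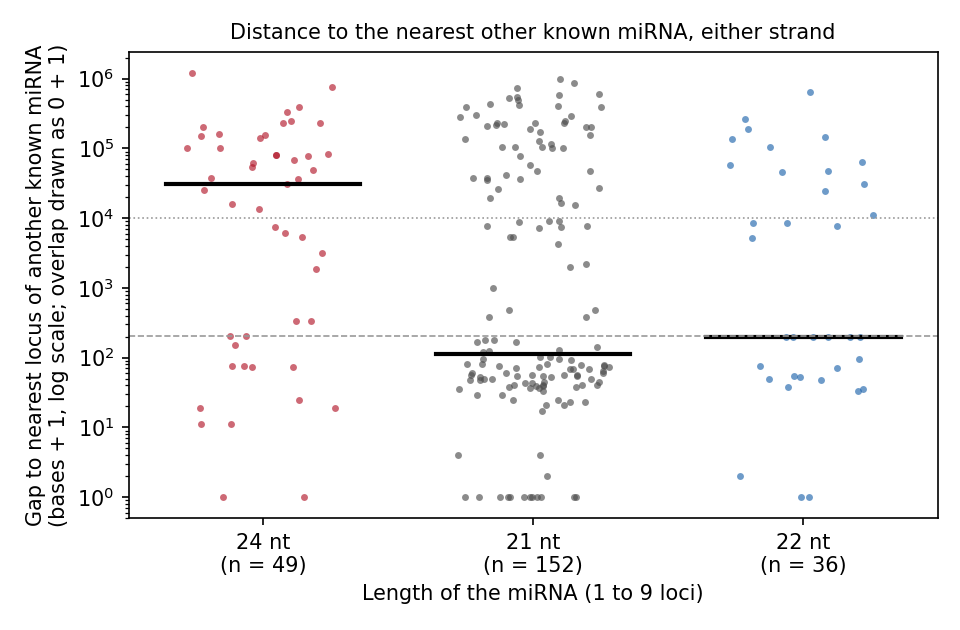
Gap in bases from each miRNA with 1 to 9 loci to the nearest locus of another known miRNA (vertical axis, log scale, 1 added), by length (horizontal axis). Points are identifiers, black lines are medians, the dashed line marks 200 bases and the dotted line 10 kb. The medians of 21 nt and 22 nt lie below the dashed line, while that of 24 nt and 28 of the 49 24-nt miRNAs lie above the dotted line.

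The neighbours within 10 kb that were not close partners belonged to 9 miRNAs, besides more distant neighbours of the paired ones. The 4 members of the 2 pairs at 206 and 333 bases were among them. URS00006221B0 on chromosome 12 lay 1857 bases from URS00004C47CE, a 23-nt miRNA with 1 locus, on the same strand. URS00005CD980 on chromosome 4 lay 5448 bases from URS00001BB0B4, a 21-nt miRNA with 1 locus, also on the same strand. The copy of URS00002E3270 on chromosome 8 lay 3188 bases from URS0000172684, a 21-nt miRNA with 25 loci, on the other strand. For URS0000224B54 and URS00000522F7 the neighbour was URS000038C249, a 22-nt miRNA with 352 loci, at 6089 and 7516 bases. A neighbour of such high copy number can fall near many places, and 17 of the 49 still had a neighbour when identifiers above 9 loci were left out.

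A group of 26 of the 35 single-locus miRNAs had no close partner. Their distance to the nearest other known miRNA had a median of 91.5 kb and ran from 0.206 to 1218 kb, and 13 of the 26 were over 100 kb away. The most isolated was URS000035B8FB on chromosome 11, at 28933585 to 28933608 on the minus strand, which lay 1217683 bases from URS0000017BAC. URS00001D1A48 on chromosome 6, at 13330545 to 13330568, was next, at 755567 bases from URS000038C249. URS0000473EC8 on chromosome 9, at 17567956 to 17567979, followed at 397346 bases from a copy of URS000038C249. Distances over 100 kb were not limited to 24 nt. They were found for 14 of all 49 miRNAs of 24 nt, 35 of 152 of 21 nt and 6 of 36 of 22 nt. Of the miRNAs over 10 kb away, these were 14 of 28 at 24 nt and 35 of 51 at 21 nt. At 22 nt they were 6 of 13. These counts were not tested, and no median for miRNAs without a close partner is given at 21 or 22 nt.

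The authors also listed 1016 predicted loci, which they gave as miRNA loci outside the known set. A predicted locus lay within 10 kb of 9 of the 49 miRNAs of 24 nt (18.4%, interval 8.76 to 32.02). At 21 nt there were 10 such miRNAs among 152 (6.58%, interval 3.20 to 11.8), and at 22 nt 6 among 36 (16.7%, interval 6.37 to 32.8). The difference from 21 nt was 11.8 points and passed Fisher's exact test (adjusted p = 0.045), and that from 22 nt was 1.70 points and did not (adjusted p = 1.0). A miRNA counted if any of its loci lay within 10 kb of a predicted locus, so several loci gave it more chances. Of the 9, only URS00001D1A48, URS00003FDA6C and URS00005CD980 had 1 locus. Whether the difference holds among miRNAs with 1 locus was not tested. The call against 21 nt rested on the limit. Within 1 kb there were 2 such miRNAs of 24 nt and within 50 kb 17, with differences from 21 nt of 1.45 and 0.483 points and adjusted p of 0.71 and 1.0 in Fisher's exact test. It was also lost without the miRNAs with gapped alignments (adjusted p = 0.081), without the ceiling on loci (adjusted p = 0.097) and with joined identifiers counted as 1 unit (adjusted p = 0.092, Fisher's exact test).

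The 9 miRNAs reached a predicted locus at 10 of their loci. The gapped alignment of URS0000335BA0 on chromosome 7 lay inside the predicted locus from 22061919 to 22062006. URS00001D1A48, among the most isolated from known miRNAs, was 628 bases from the predicted locus on chromosome 6 from 13329857 to 13329916. The copy of URS0000045204 on chromosome 4 was 1122 bases from one at 13242444 to 13242525, and the copy of URS00002E3270 on chromosome 11 was 1532 bases from one at 703700 to 703751. The overlapping loci of URS000034493F and URS0000045204 on chromosome 8 shared a predicted neighbour, at 3859 and 3856 bases. URS00003FDA6C lay 4313 bases and URS00005CD980 5677 bases from a predicted locus. Those of URS000014BC6E and URS000051DD07 were just inside the limit, at 9917 and 9923 bases. Just outside it were URS000027BA07 and URS000020DDC4, at 10063 and 10147 bases. The names of predicted loci carry no strand, so these distances ignore it.

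**Figure D4:**
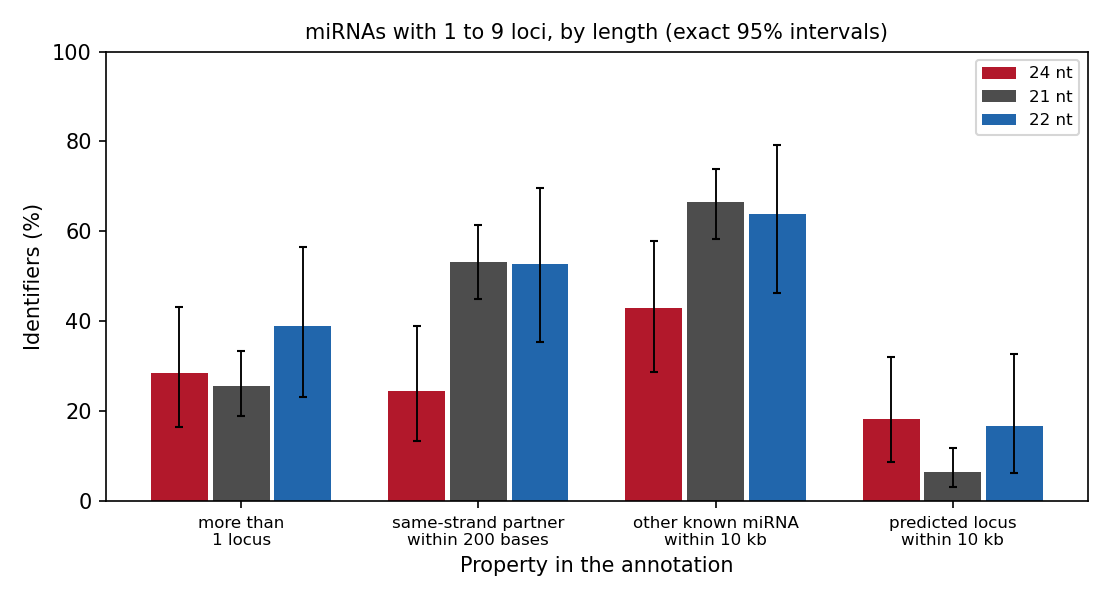
Percent of identifiers (vertical axis) with each of 4 properties (horizontal axis), for miRNAs with 1 to 9 loci of 24 nt (n = 49), 21 nt (n = 152) and 22 nt (n = 36). Bars are shares and whiskers exact 95% intervals over identifiers. Close partners stand at 24.5% for 24 nt against 53.3% and 52.8% for the shorter lengths.

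The plus strand held more of the 24-nt miRNAs than the minus strand. Of their 79 loci, 54 were on the plus strand (68.4%), compared with 125 of 250 at 21 nt (50%) and 38 of 72 at 22 nt (52.8%). Among miRNAs with 1 locus the plus strand held 27 of 35 at 24 nt (77.1%), 53 of 113 at 21 nt (46.9%) and 10 of 22 at 22 nt (45.5%). Pairs on a shared strand add to such counts. For single-locus miRNAs without a close partner the plus strand held 19 and the minus strand 7 at 24 nt, 24 and 30 at 21 nt, and 1 and 8 at 22 nt. These counts were looked at after the positions had been seen and were not tested.

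The 79 loci reached all 12 chromosomes and lay nowhere else in the annotation. Chromosome 8 held 17 loci (21.5%), from 14 of the 49 miRNAs, against 8.40% of the loci at 21 nt and 12.5% at 22 nt. Chromosomes 6 and 11 followed with 10 and 9 loci. Chromosome 2 held 4 loci of 24 nt (5.06%), against 44 at 21 nt (17.6%) and 8 at 22 nt (11.1%). Chromosome 5 held the fewest, 2. Chromosome 1 carried 7 loci of 6 multi-locus miRNAs and 0 of the 35 single-locus ones, while 17 of the 113 single-locus miRNAs of 21 nt and 2 of the 22 of 22 nt were there. These shares were not set against chromosome length and were not tested.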

How the data were processed

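Small RNA was extracted with Trizol and made into TruSeq libraries, per the labels' protocols. Per the series' design text, adapters and other non-coding RNA were removed before known and new miRNAs were quantified, with fastp, Bowtie, bedtools and Subread per the submitters' processing notes. No source used here gives their versions or the genome build. The authors deposited an RNAcentral annotation with positions by alignment and 2 count tables. The 16 per-library columns of those tables match no label and were not used, so depth per library is not given. Used were annotation positions, counted from 1, and row names. Whether starts of predicted loci count from 0 or 1 is not stated in their names, so distances to them can be off by 1 base.

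The length of a miRNA was its aligned bases summed per alignment, the largest per identifier. Gaps are the bases strictly between 2 loci. Shares were compared with 2-sided Fisher's exact tests, Benjamini-Hochberg adjusted over 8 comparisons (4 properties, 2 lengths), with a threshold of 0.05. The 2 comparisons of the share with several loci stayed in the adjustment as planned but are not reported, because the number of loci chose the members. Intervals are exact 95% Clopper-Pearson intervals. Identifiers are related by duplication and shared hairpins and are not replicates. The p-values and intervals therefore describe these lists and carry no error of an experiment. The gap code was tested on simulated data with planted pairs. The members, limits and tests were chosen with earlier results of these data known. Named miRNAs were those with 5 or more loci, a close partner, an overlap, a gapped alignment or another of the 49 within 10 kb. Others were named after their values were seen. The work used SciPy 1.17.1 for tests, pandas 2.3.3 and NumPy 2.4.6 under Python 3.11.15, and Matplotlib 3.10.9 for figures.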

Additional observations from a re-analysis of the deposited data

How the results depend on the processing

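Each of the 6 tested differences in share was recomputed under each alternative that bears on it, 44 values in all, of which 28 kept their direction and their side of the threshold. The 2 alternatives that left out identifiers above 9 loci or counted close partners of the same length as 1 were chosen after seeing the data. Differences below are 24 nt minus the other length, in percentage points. For close partners, the difference from 22 nt lost its call without the ceiling on loci (-18.2), with limits of 100 bases (-13.7) and 500 bases (-20.1) and with joined partners counted as 1 (-27.4). The difference from 21 nt lost it in the last of these alone (-20.1), where the miRNAs with a partner became 7 units. For neighbours within 10 kb, joined partners took the difference from 21 nt to -17.7 and ended its call. Leaving close partners out left 13 miRNAs with a neighbour and turned both differences to 1.53. For predicted loci, the call against 21 nt was lost in 5 alternatives: without the ceiling (11.7), without gapped identifiers (10.4), within 1 kb (1.45, 2 miRNAs), within 50 kb (0.483, 17 miRNAs) and with joined partners (11.9). The difference from 22 nt, which had no call, turned negative without the ceiling (-6.12), within 1 kb (-7.03) and within 50 kb (-9.75). The cause of these shifts was not tested. Restricting loci to chromosomes 1 to 12 changed no call. The comparison of first bases was not run, since no sequence was used here, and no test compared libraries.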
